A study of Mus musculus with 12 samples.

Results

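The mouse genes examined were 9 members of the PARP family and Dtx3l, the partner of Parp9. The rule for choosing them lists them by name and uses no measured value, although it was written with earlier results of these data known: Parp9, Dtx3l, Parp14, Parp10, Parp11 and Parp12 as interferon-linked genes, Parp1, Parp2 and Parp3 as DNA repair genes, and Parp8, which was placed with neither. These are 10 of the 40481 gene IDs in the deposited table, each with 1 ID, and all 10 passed the filter on low values (1 CPM, the reads of a gene scaled to a fixed library total, reached in 3 or more of the 12 libraries). Each member had between 325 and 14273 reads in a library.

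RNA was sequenced from hematopoietic stem cells (HSCs), the cells that renew the blood system, in 4 groups of 3 libraries: wild type (WT) or iE/R, an inducible form of the leukemia fusion gene ETV6-RUNX1, each in fetal liver (E14.5) and in bone marrow (8 weeks of age). All groups, WT included, spent 3 days in an HSC expansion culture with 1 µg/mL doxycycline (DOX), so every comparison of genotype is between cells that all received the drug. The promoter of the transgene, the number of animals behind a library and the sex of the animals are not stated in the labels, and p-values measure only the spread between libraries.

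PARP enzymes use NAD to attach ADP-ribose to proteins and nucleic acids. PARP1, PARP2 and PARP3 bind broken DNA and recruit repair factors, and in dividing cells PARP1 is abundant. Another branch of the family is induced by interferons; it acts in antiviral defence, and in it PARP9 works in a complex with the ubiquitin ligase DTX3L. Interferon signalling is also known to push HSCs out of their resting state.

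Library totals ranged from 32.3 to 64.5 M reads, and no pair of replicates agreed within sampling noise. WT bone marrow replicate 1 stood apart: its chi-square statistic per degree of freedom against the other WT bone marrow replicates was 149 and 156, where the remaining 10 pairs of replicates gave 28.4 to 83.4. Member calls that change without this library are given beside the result. Runx1, part of which is in the fusion, lay between 86.7 and 105 CPM in WT and 143 and 194 CPM in ETV6-RUNX1 bone marrow, and between 110.4 and 136 CPM against 218 and 244 CPM in fetal liver. Reads of the transgene and of the mouse gene cannot be told apart in these values. Xist, made by cells with more than 1 X chromosome, was at 51.7 to 89.3 CPM in all fetal liver libraries and at 0.175 to 1.27 CPM in all bone marrow libraries, so that an effect of source and one that goes with Xist cannot be told apart. All 8 HSC markers were at 1 CPM or more in every library. Their summed level ranged over 1482 to 2424 CPM in WT and 2139 to 2645 CPM in ETV6-RUNX1 bone marrow, and over 1540 to 1900 CPM in WT and 2784 to 3359 CPM in ETV6-RUNX1 fetal liver.

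All 6 interferon-linked members rose with ETV6-RUNX1 in both sources, and all 6 rose more in fetal liver than in bone marrow. Ratios of mean CPM ran from 5.63 to 14.4 in fetal liver and from 1.94 to 3.48 in bone marrow. In fetal liver 9 of the 10 members passed the test (limma, adjusted p under 0.05 over 14271 genes), 8 of them higher, where 43.1% of all genes tested passed, 24.8% higher and 18.3% lower. In bone marrow 8 of 10 passed, 7 of them higher, where 19.4% of all genes did, 14.4% higher and 4.93% lower. For all 6 interferon-linked members the lowest ETV6-RUNX1 library was above the highest WT library in both sources, as was so for 32.3% of all genes in fetal liver and 23.6% in bone marrow, where 23.3% and 10.9% lay apart the other way. The split of all called genes depends on scaling: 57.6% were higher in fetal liver and 74.5% in bone marrow, but 42.0% and 48.5% after quantile normalization, and 50.6% in bone marrow after median-of-ratios scaling. Against the median of all genes, which was 0.08 and 0.13 on the log2 scale in fetal liver and bone marrow, the median of the interferon-linked members was 3.11 and 1.27. Quantile normalization moved the median of all genes to -0.10 and -0.04.

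**Figure D1:**
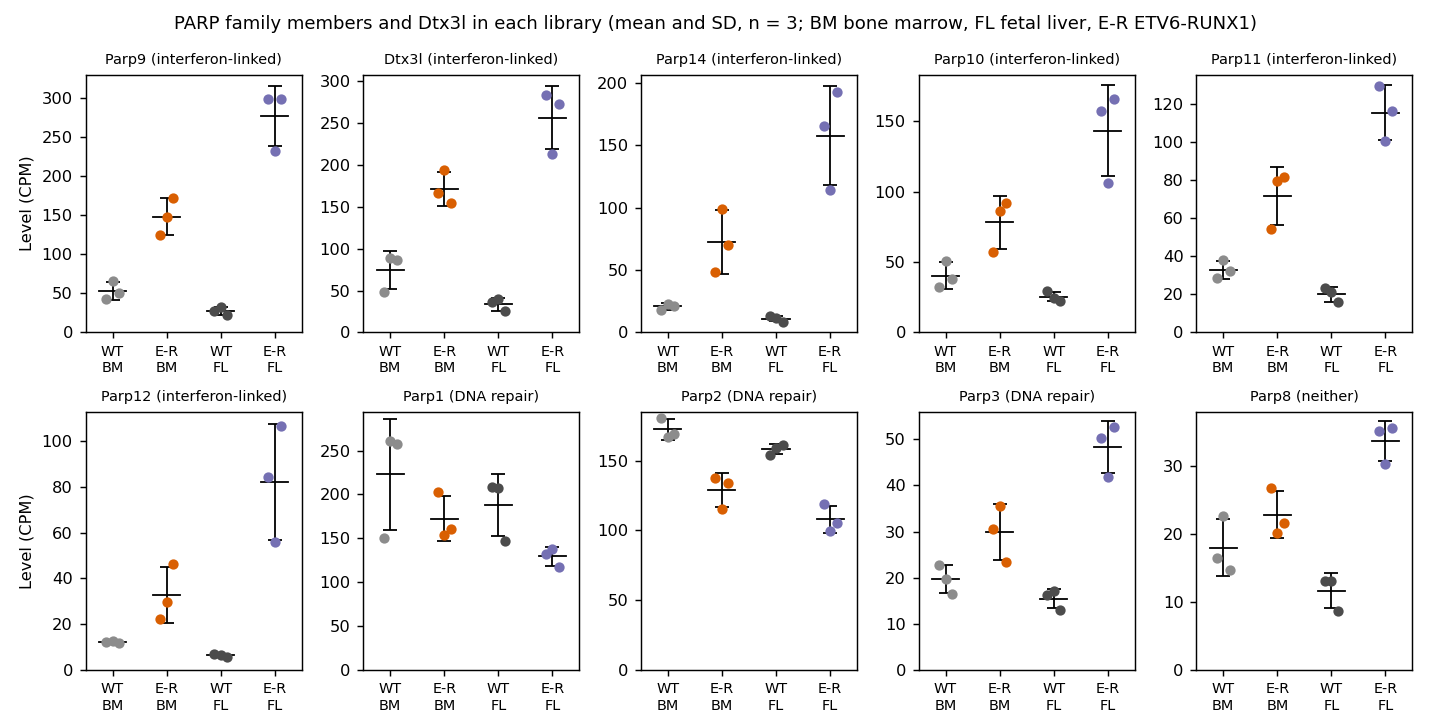
Level in CPM (vertical axes, each from 0) of the 10 genes in each of the 12 libraries (points), with the mean and SD of 3 libraries per group (bars). The interferon-linked genes run from lowest in WT fetal liver to highest in ETV6-RUNX1 fetal liver, with ETV6-RUNX1 bone marrow between them and no overlap between genotypes.

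Parp9 (ENSMUSG00000022906, GRCm38 chr16:35938470-35972605, plus strand) encodes a macrodomain protein that binds ADP-ribose and partners DTX3L. Its level in fetal liver was 27.2, 32.0 and 22.2 CPM in the WT replicates 1 to 3, and 299.9, 233 and 299.4 CPM in the ETV6-RUNX1 replicates. In bone marrow the WT libraries were at 43.0, 66.2 and 50.2 CPM and the ETV6-RUNX1 libraries at 125, 148 and 172 CPM. The lowest ETV6-RUNX1 library was above the highest WT library in both sources. The log2 fold change was 3.31 ± 0.19 (SE) in fetal liver (limma adjusted p = 1.35e-08, a ratio of means of 10.2) and 1.47 ± 0.19 in bone marrow (limma adjusted p = 0.00029, a ratio of 2.79).

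Dtx3l (ENSMUSG00000049502, chr16:35926511-35939151, minus strand) encodes the E3 ubiquitin ligase of that complex. WT fetal liver had 36.1, 40.2 and 25.0 CPM and ETV6-RUNX1 fetal liver 284, 213 and 273 CPM. The bone marrow libraries gave 48.8, 89.3 and 86.2 CPM in WT and 167, 194 and 154 CPM in ETV6-RUNX1. As for Parp9, the genotypes did not overlap in either source, and replicate 1 was the lowest of the WT bone marrow libraries. Dtx3l rose by 2.91 ± 0.23 on the log2 scale in fetal liver (limma adjusted p = 2.39e-07, a ratio of 7.61) and by 1.23 ± 0.23 in bone marrow (limma adjusted p = 0.00261, a ratio of 2.30).

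Parp9 and Dtx3l start head to head, and their exons share 458 bp on opposite strands, which is 9.40% of the exon length of Parp9 and 8.00% of that of Dtx3l. The library kit keeps strand, but whether the counting used it is not given in the sources used here, so reads in this stretch could be counted for either gene. An antisense gene model, Gm15564, lies within the Parp9 span without sharing exon sequence, and had a mean of 146 CPM over the 12 libraries. Levels per kb of exon put the pair close together: the ratio of Parp9 to Dtx3l was 0.684 to 1.03 in the WT bone marrow libraries, 0.886 to 1.04 in WT fetal liver, 0.879 to 1.31 in ETV6-RUNX1 bone marrow and 1.24 to 1.29 in ETV6-RUNX1 fetal liver. The ETV6-RUNX1 fetal liver libraries lay above all WT libraries in this ratio.

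Parp14 (ENSMUSG00000034422, chr16:35832874-35871544, minus strand) encodes a mono-ADP-ribosyltransferase with macrodomains that was first described as a cofactor of STAT6. Its level was lowest in WT fetal liver, at 12.8, 11.3 and 8.72 CPM, and highest in ETV6-RUNX1 fetal liver, at 165, 115 and 193 CPM. WT bone marrow was at 17.9, 23.1 and 21.4 CPM, and ETV6-RUNX1 bone marrow at 48.7, 99.1 and 69.7 CPM. The log2 fold changes, 3.71 ± 0.25 in fetal liver (limma adjusted p = 5.42e-08) and 1.70 ± 0.25 in bone marrow (limma adjusted p = 0.000597), were the highest of the 10 members in each source. They match ratios of means of 14.4 and 3.48. The ETV6-RUNX1 bone marrow replicates differed from each other more than the WT replicates did, but the lowest of them was still above the highest WT library.

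Parp14, Dtx3l and Parp9 lie within 139.7 kb of mouse chromosome 16. The nearest protein-coding genes on each side were set beside them as a description of the region. On the side of Parp14, Hspbap1 rose by 0.68 ± 0.19 on the log2 scale in fetal liver (limma adjusted p = 0.0115) and by 0.71 ± 0.19 in bone marrow (limma adjusted p = 0.0207), from group means of 5.63 to 9.60 CPM and 3.66 to 6.73 CPM. Dirc2, next to it, changed by 0.42 ± 0.20 in fetal liver (limma adjusted p = 0.0981) and rose by 0.64 ± 0.20 in bone marrow (limma adjusted p = 0.0346). On the side of Parp9, Kpna1 and Wdr5b did not pass the test in either source: their log2 fold changes were 0.07 ± 0.25 and 0.18 ± 0.16 in fetal liver and -0.10 ± 0.25 and -0.28 ± 0.16 in bone marrow. None of these 4 neighbours passed the test of a difference between the sources, which all of Parp14, Dtx3l and Parp9 passed. Of all genes only 9.19% passed it, so that no pass among 4 genes says little. An effect shared by the region was not tested.

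**Figure D2:**
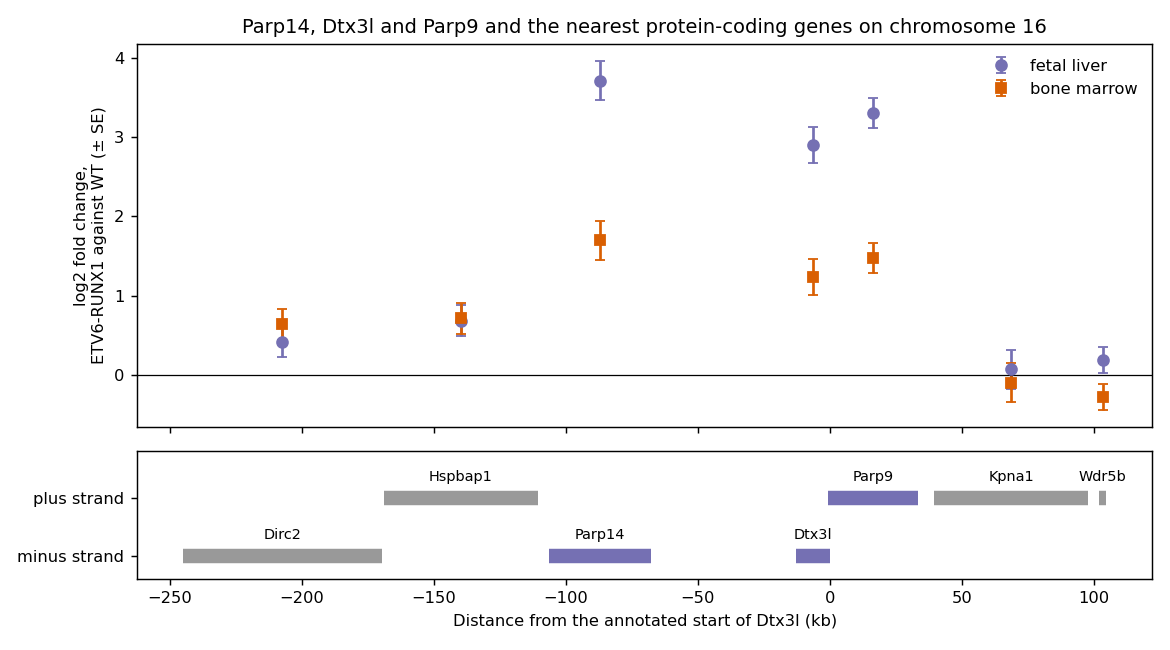
Log2 fold change of ETV6-RUNX1 against WT (± SE) for Parp14, Dtx3l, Parp9 and the 2 nearest protein-coding genes on each side, by distance in kb from the annotated start of Dtx3l, with the gene spans by strand below. The 3 members lie at 2.91 to 3.71 in fetal liver and 1.23 to 1.70 in bone marrow, and the 4 neighbours between -0.28 and 0.71.

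Parp10 (chr15:76231174-76243441, minus strand) encodes a mono-ADP-ribosyltransferase. It had 29.3, 24.5 and 22.6 CPM in WT fetal liver against 158, 106 and 166 CPM in ETV6-RUNX1 fetal liver, and 32.1, 50.9 and 38.0 CPM in WT bone marrow against 56.9, 86.0 and 92.0 CPM in ETV6-RUNX1 bone marrow. The groups did not overlap, but the lowest ETV6-RUNX1 bone marrow library and the highest WT bone marrow library were close. Parp10 rose by 2.43 ± 0.22 on the log2 scale in fetal liver (limma adjusted p = 1.41e-06) and by 0.94 ± 0.22 in bone marrow (limma adjusted p = 0.011), the lowest values among the interferon-linked members. Parp10 and its neighbour Plec, on the same strand, share 205 bp of exon, 4.80% of the exon length of Parp10.

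Parp11 (chr6:127446840-127494261, plus strand) encodes a mono-ADP-ribosyltransferase for which the interferon receptor pathway and the nuclear envelope are known sites of action. Its level was 23.6, 21.0 and 15.8 CPM in WT and 129, 100.5 and 117 CPM in ETV6-RUNX1 fetal liver. In bone marrow it was 28.6, 38.0 and 32.3 CPM in WT and 54.3, 79.4 and 81.7 CPM in ETV6-RUNX1. Each ETV6-RUNX1 library was above each WT library of its source. The log2 fold change was 2.47 ± 0.19 in fetal liver (limma adjusted p = 2.39e-07) and 1.08 ± 0.19 in bone marrow (limma adjusted p = 0.00215).

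Parp12 (chr6:39086410-39118349, minus strand) encodes an antiviral enzyme with zinc fingers that bind RNA. It was the scarcest of the interferon-linked members in CPM, with 7.03, 6.46 and 5.66 CPM in WT fetal liver and 12.0, 12.7 and 11.8 CPM in WT bone marrow. ETV6-RUNX1 cells had 84.6, 55.7 and 107 CPM in fetal liver and 22.2, 29.9 and 46.1 CPM in bone marrow. The WT libraries of a source differed little from each other, the ETV6-RUNX1 libraries spread further, and the genotypes did not overlap. Parp12 rose by 3.45 ± 0.25 on the log2 scale in fetal liver (limma adjusted p = 1.37e-07, a ratio of means of 12.9) and by 1.30 ± 0.25 in bone marrow (limma adjusted p = 0.00381, a ratio of 2.69).

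The interferon-linked members shared extremes among replicates, in part with other members. ETV6-RUNX1 fetal liver replicate 2 was the lowest of its group for all 6 of them, WT fetal liver replicate 3 was the lowest of its group for all 6, and WT bone marrow replicate 2 was the highest of its group for all 6. In bone marrow, replicate 1 was the lowest for 5 of the 6 in WT and for 5 of the 6 in ETV6-RUNX1. Parp3 and Parp8 were also lowest in both of these fetal liver libraries, and Parp1 and Parp8 also highest in WT bone marrow replicate 2. The other DNA repair members went both ways. In WT fetal liver replicate 3 Parp1 was also the lowest of its group, and Parp2 the highest. In ETV6-RUNX1 fetal liver replicate 2 Parp2 was also the lowest, and Parp1 the highest. The share of all genes with such extremes was not counted. Over the 12 libraries, which share the 4 groups, Pearson's r of log2(CPM + 1) between pairs of interferon-linked members was 0.94 to 0.99 (15 pairs). All 6 kept their calls in both sources, and in the difference between the sources, under every alternative run, each single library left out included.

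Promoter windows from RefSeq (GRCm38.p6, 250 bases before to 50 after a gene start) were matched for 7 members in 8 windows. None was matched for the interferon-linked members Parp9, Parp10 and Parp14, whose promoters were therefore not searched. The windows were searched on both strands for a pair of GAAA words with any 2 bases between them, the core of the interferon-stimulated response element (ISRE), for TTCNNNGAA, a STAT site, and for the GC box GGGCGG. Of all 32851 windows of this length, 3.44% hold the first, 8.30% the second and 35.7% the third. Sequences of 3 members are shown, upstream of the start only, 5′ to 3′ on the strand of the gene, with matches in capitals: Parp11 and Parp12 as interferon-linked members and Parp1 as a member that did not rise. Only the longest upstream stretch that overlaps no annotated exon is printed. It is 250 bases long for Parp11 and Parp1 and 123 for Parp12, although the whole window was searched.
Parp11, chr6:127446590-127446839 (plus strand): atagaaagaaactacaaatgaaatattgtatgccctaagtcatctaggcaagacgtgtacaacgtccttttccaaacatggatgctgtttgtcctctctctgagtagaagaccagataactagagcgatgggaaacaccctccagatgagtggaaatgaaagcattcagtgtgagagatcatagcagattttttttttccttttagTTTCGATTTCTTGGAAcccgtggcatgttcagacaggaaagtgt
Parp12, chr6:39118350-39118472 (minus strand): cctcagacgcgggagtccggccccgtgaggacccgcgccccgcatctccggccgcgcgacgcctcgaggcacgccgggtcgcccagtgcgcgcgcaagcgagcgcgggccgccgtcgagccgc
Parp1, chr1:180568641-180568890 (plus strand): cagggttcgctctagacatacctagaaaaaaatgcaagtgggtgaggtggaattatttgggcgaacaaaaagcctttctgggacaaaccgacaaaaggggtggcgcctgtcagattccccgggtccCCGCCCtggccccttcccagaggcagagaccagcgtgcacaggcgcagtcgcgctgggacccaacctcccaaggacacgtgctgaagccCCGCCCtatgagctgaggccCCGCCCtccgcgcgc
The capitals in Parp11 are 1 match of the ISRE core on the minus strand, from base -44, that overlaps 1 match of TTCNNNGAA from base -37, where base -1 is the last before the start. The capitals in Parp1 are GC boxes on the minus strand, from bases -124, -35 and -15, and 1 more lies after the start, at base 11. GC boxes were not particular to Parp1. The window of Parp8, which rose in fetal liver, held 3, from bases -241, -58 and 44, and that of Parp2 held 1, from base -153. Neither of these windows held the ISRE core or TTCNNNGAA. The other Parp11 window, at the RefSeq start 127453627, holds neither the ISRE core nor TTCNNNGAA, and has 1 GC box from base -37. GC content was 42.0% in the Parp11 window shown and 59.0% in the other, 62.0% in that of Parp1 and 73.7% in that of Parp12. None of the 3 motifs was found in the windows of Parp12, Parp3 or Dtx3l, which says only that these letters are not there. A match is a description of the sequence; these data hold no measurement of binding.

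Among the DNA repair members, Parp2 fell in both sources, Parp3 rose in fetal liver and, in a call that most alternatives lost, in bone marrow, and Parp1 was lower in ETV6-RUNX1 cells without passing the test in either. The log2 fold change of Parp3 was below the lowest of the interferon-linked members in each source.

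Parp1 (chr1:180568924-180601254, plus strand) encodes the main poly-ADP-ribosylating enzyme at DNA breaks. Fetal liver libraries were at 208, 208 and 147 CPM in WT and 132, 138 and 118 CPM in ETV6-RUNX1, which did not overlap. Bone marrow libraries were at 150.1, 260.3 and 258 CPM in WT and 202, 154 and 161 CPM in ETV6-RUNX1, which overlapped because of WT replicate 1. The log2 fold change was -0.52 ± 0.21 in fetal liver (limma adjusted p = 0.0542, 95% interval -0.96 to -0.08) and -0.33 ± 0.21 in bone marrow (limma adjusted p = 0.268, interval -0.77 to 0.11). Without WT bone marrow replicate 1, the library that stood apart, the limma adjusted p was 0.011 in fetal liver and 0.0306 in bone marrow, where the log2 fold change became -0.59. Leaving out WT fetal liver replicate 3 gave -0.68 in fetal liver (limma adjusted p = 0.026). On the recovered reads, edgeR gave an adjusted p of 0.013 in fetal liver, and DESeq2 gave 0.00601 in fetal liver and 0.0448 in bone marrow. Median-of-ratios scaling (0.0152), quantile normalization (0.0339) and a fit of only the libraries compared (0.0158) also passed the threshold in fetal liver.

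Parp2 (chr14:50807841-50821301, plus strand) encodes the close relative of PARP1 with a shared role in single-strand break repair. WT fetal liver was at 154, 159 and 161 CPM and ETV6-RUNX1 fetal liver at 119, 99.4 and 105 CPM. WT bone marrow was at 181, 167 and 169 CPM and ETV6-RUNX1 bone marrow at 138, 115 and 134 CPM. The genotypes did not overlap in either source. Parp2 fell by 0.55 ± 0.12 on the log2 scale in fetal liver (limma adjusted p = 0.00181, a ratio of means of 0.682) and by 0.42 ± 0.12 in bone marrow (limma adjusted p = 0.0241, a ratio of 0.749). The bone marrow call was lost without WT bone marrow replicate 1 (limma adjusted p = 0.0552), without ETV6-RUNX1 bone marrow replicate 2 (0.101) and in a fit of the bone marrow libraries alone (0.0811).

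Parp3 (chr9:106470322-106476949, minus strand) encodes a mono-ADP-ribosyltransferase that acts in the joining of double-strand breaks. Its level was 16.3, 17.1 and 13.0 CPM in WT and 50.3, 41.9 and 52.7 CPM in ETV6-RUNX1 fetal liver. In bone marrow it was 22.7, 19.6 and 16.5 CPM in WT and 30.6, 35.6 and 23.5 CPM in ETV6-RUNX1, with the groups just apart. Parp3 rose by 1.58 ± 0.19 on the log2 scale in fetal liver (limma adjusted p = 1.5e-05, a ratio of 3.12). In bone marrow the log2 fold change was 0.57 ± 0.19 (limma adjusted p = 0.0439, a ratio of 1.52), a call that 13 of 21 alternatives lost, with log2 fold changes from 0.35 to 0.73 and adjusted p from 0.0173 to 0.217 over all of them. It was lost after median-of-ratios scaling (0.116) and quantile normalization (0.217, log2 fold change 0.35), by edgeR (0.114) and DESeq2 (0.095), with all genes with reads (0.0833) and with only the libraries compared (0.108). Of the single libraries left out, WT bone marrow replicate 2 (0.0888) or 3 (0.138), ETV6-RUNX1 bone marrow replicate 1 (0.112) or 2 (0.168), WT fetal liver replicate 1 (0.0547) or 2 (0.0555) and ETV6-RUNX1 fetal liver replicate 1 (0.0598) each ended it. Over the 12 libraries Parp3 correlated with the interferon-linked members at r of 0.91 to 0.95, Parp2 at -0.89 to -0.81 and Parp1 at -0.64 to -0.41.

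Parp8 (chr13:116854820-117025537, minus strand) encodes a mono-ADP-ribosyltransferase about which less is known. It was at 13.1, 13.1 and 8.73 CPM in WT and 35.2, 30.4 and 35.6 CPM in ETV6-RUNX1 fetal liver, a rise of 1.47 ± 0.20 on the log2 scale (limma adjusted p = 5.81e-05, a ratio of 2.89). In bone marrow the WT libraries, at 16.5, 22.7 and 14.7 CPM, overlapped the ETV6-RUNX1 libraries, at 26.7, 20.2 and 21.7 CPM. The log2 fold change there was 0.34 ± 0.20 (limma adjusted p = 0.244, 95% interval -0.09 to 0.78). Its correlation with the interferon-linked members was 0.91 to 0.94.

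The difference between the genotype effects of the sources was tested in the same model. Of the 10 members, 8 passed, all with the larger log2 fold change in fetal liver, where 9.19% of all genes passed, 5.56% in this direction and 3.62% in the other. Without WT bone marrow replicate 1 the genes that passed went from 1311 to 2332, and 8 members passed. Among all called genes the share in this direction was 60.6%, and 74.6% after median-of-ratios scaling. The difference was 2.15 ± 0.36 for Parp12 (limma adjusted p = 0.00213), 2.01 ± 0.35 for Parp14 (0.00274), 1.84 ± 0.26 for Parp9 (0.000745) and 1.67 ± 0.32 for Dtx3l (0.00502). It was 1.49 ± 0.32 for Parp10 (limma adjusted p = 0.00961) and 1.39 ± 0.27 for Parp11 (0.00593), so that the interferon-linked members had a median of 1.76 against -0.05 for all genes. The effects on Parp1 and Parp2 differed between the sources by -0.19 ± 0.29 (limma adjusted p = 0.726, 95% interval -0.81 to 0.44; 0.076 without WT bone marrow replicate 1) and -0.13 ± 0.17 (limma adjusted p = 0.646, interval -0.49 to 0.22).

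Parp3, with a difference of 1.01 ± 0.26 (limma adjusted p = 0.0288), and Parp8, with 1.13 ± 0.29 (0.0249), also rose more in fetal liver. Over all alternatives the difference stayed at 0.85 to 1.14 for Parp3 and 0.95 to 1.26 for Parp8. Both calls were near the threshold, however, and were lost without any 1 of several libraries. That of Parp3 was lost without WT bone marrow replicate 2 (0.0653), ETV6-RUNX1 bone marrow replicate 1 (0.0518) or 3 (0.0618), WT fetal liver replicate 3 (0.0812) or ETV6-RUNX1 fetal liver replicate 1 (0.0706) or 3 (0.0532). That of Parp8 was lost without WT bone marrow replicate 2 (0.0701), WT fetal liver replicate 3 (0.0683) or ETV6-RUNX1 fetal liver replicate 1 (0.0614). Both calls were also lost when all genes with reads were tested, at limma adjusted p of 0.0648 and 0.0621.

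**Figure D3:**
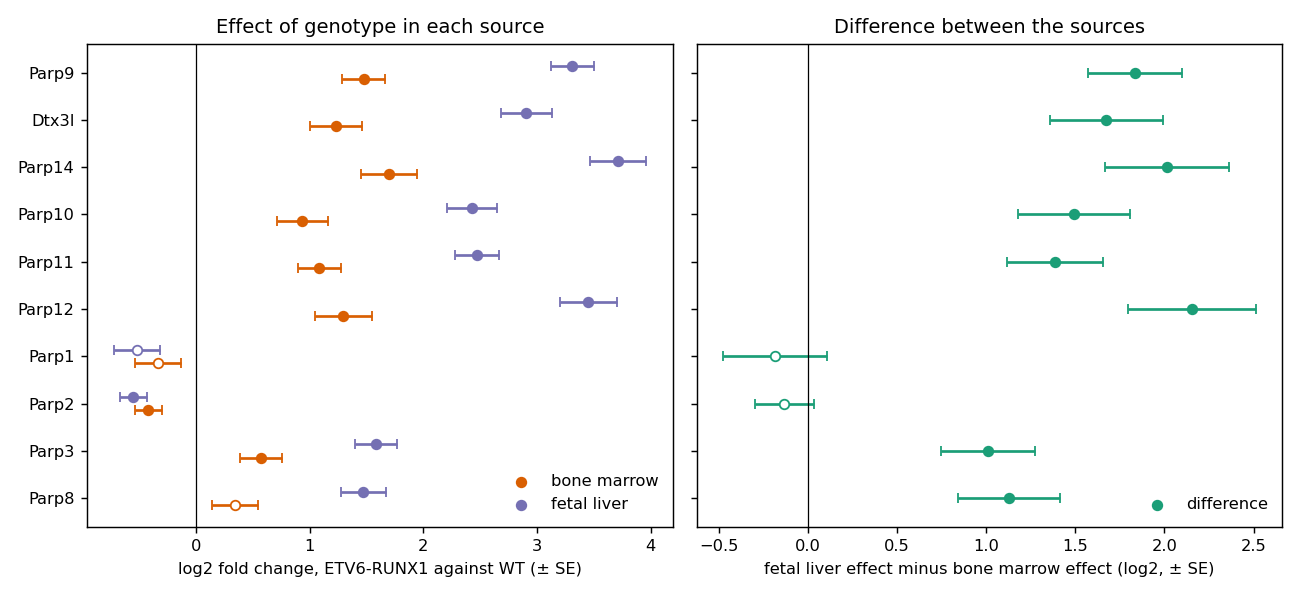
Left, log2 fold change of ETV6-RUNX1 against WT (± SE) for each gene in fetal liver and bone marrow; right, the fetal liver effect minus the bone marrow effect (± SE). Filled points passed limma's test at an adjusted p of 0.05 and open points did not: the 6 interferon-linked genes are filled throughout, and Parp1 is open throughout.

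The larger effect in fetal liver came with differences at both ends of the scale. These comparisons use the same 12 libraries as those above. In WT cells 5 of the 10 members were lower in fetal liver than in bone marrow, where 7.77% of all genes were called lower and 3.38% higher (11.1% in all). Without WT bone marrow replicate 1 the genes that passed went from 1591 to 2781. Of all called genes 30.3% were higher, and 41.0% and 41.5% after median-of-ratios and quantile scaling. All 5 were interferon-linked. The log2 difference was -0.94 ± 0.19 for Parp9 (limma adjusted p = 0.00448) and -1.10 ± 0.23 for Dtx3l (0.00519), calls that no alternative ended. Parp14 was at -0.88 ± 0.25 (limma adjusted p = 0.032), Parp11 at -0.69 ± 0.19 (0.03), Parp12 at -0.84 ± 0.25 (0.0472) and Parp10, which did not pass, at -0.63 ± 0.22 (0.09). No WT fetal liver library overlapped the WT bone marrow libraries in any of the 6 genes, as was so for 18.9% of all genes in this direction and 10.6% in the other.

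The calls of Parp14, Parp11 and Parp12 in WT cells were lost without WT bone marrow replicate 2 (limma adjusted p of 0.13, 0.145 and 0.148), without WT bone marrow replicate 3 (0.0894, 0.0709 and 0.0995), without WT fetal liver replicate 2 (0.0691, 0.0607 and 0.103) and without WT fetal liver replicate 3 (0.146, 0.155 and 0.161). That of Parp12 was also lost without WT bone marrow replicate 1 (0.0504), WT fetal liver replicate 1 (0.0795), ETV6-RUNX1 bone marrow replicate 2 (0.0588) or ETV6-RUNX1 fetal liver replicate 1 (0.0661). All 3 calls were lost with all genes with reads (0.118, 0.0894 and 0.144) and after quantile normalization (0.074, 0.0724 and 0.115). Those of Parp11 and Parp12 were also lost after median-of-ratios scaling (0.0557 and 0.0761) and by edgeR (0.0563 and 0.0636), and that of Parp11 with only the libraries compared (0.0513). Parp10 passed only without WT bone marrow replicate 1 (0.0328). No DNA repair member passed in WT cells: Parp1 differed by -0.22 ± 0.21 (limma adjusted p = 0.538), Parp2 by -0.12 ± 0.12 (0.553) and Parp3 by -0.32 ± 0.19 (0.303).

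In ETV6-RUNX1 cells the order was the opposite: 6 of 10 members were higher in fetal liver than in bone marrow and none was lower, where 28.6% of all genes passed, 10.4% higher and 18.2% lower. Of all called genes 36.3% were higher, and 58.8% after median-of-ratios scaling, which moved the median of all genes from -0.16 to 0.00. The members that passed were Parp12 (1.32 ± 0.25 on the log2 scale, limma adjusted p = 0.00157), Parp14 (1.14 ± 0.25, 0.00352), Parp9 (0.90 ± 0.19, 0.00264), Parp10 (0.87 ± 0.22, 0.0102), Parp11 (0.69 ± 0.19, 0.0149) and Parp3 (0.69 ± 0.19, 0.0135). Dtx3l differed by 0.57 ± 0.23 (limma adjusted p = 0.071) and passed without WT bone marrow replicate 1 (0.0187), after either of the 2 other scalings (0.0133 and 0.0382), by edgeR (0.0195), by DESeq2 (0.00388) and in a fit of only the libraries compared (0.0173). Parp8 differed by 0.55 ± 0.20 (limma adjusted p = 0.0556), and passed in 7 of 21 alternatives, among them those without WT bone marrow replicate 2 (0.0457) or WT fetal liver replicate 3 (0.0428).

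Some of the calls in ETV6-RUNX1 cells were lost when a single library was left out. Without ETV6-RUNX1 bone marrow replicate 1, the lowest of its group for most of these genes, Parp10 (limma adjusted p = 0.0545) and Parp11 (0.0778) did not pass. Without ETV6-RUNX1 fetal liver replicate 1, Parp11 (0.068) and Parp3 (0.0514) did not, and without ETV6-RUNX1 bone marrow replicate 3 Parp3 did not (0.0601). The count of members that passed was 4 without ETV6-RUNX1 bone marrow replicate 1, 4 without ETV6-RUNX1 fetal liver replicate 1, and 6 with all libraries. In all 6 interferon-linked genes the ETV6-RUNX1 fetal liver libraries lay above all ETV6-RUNX1 bone marrow libraries, as was so for 14.4% of all genes (27.8% lay below). Parp1 and Parp2 were at -0.41 ± 0.21 and -0.26 ± 0.12 (limma adjusted p of 0.156 and 0.117).

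Levels were compared between genes as CPM per kb of annotated exon. In WT bone marrow Parp2, at 47.5 ± 2.1 (SD, n = 3), and Parp1, at 42.1 ± 11.9, overlapped and were the most abundant members. Dtx3l (13.1 ± 3.9), Parp9 (10.9 ± 2.4) and Parp10 (9.43 ± 2.26) followed, each overlapping the next, and then came Parp3 (5.30 ± 0.83) and Parp11 (4.70 ± 0.67), Parp12 (3.04 ± 0.12), Parp14 (2.24 ± 0.29) and Parp8 (2.02 ± 0.47). WT fetal liver had a similar order with a wider gap: Parp2 was at 43.6 ± 0.97 and Parp1 at 35.5 ± 6.6, while Parp10, Dtx3l and Parp9 overlapped at 5.95 ± 0.81, 5.90 ± 1.37 and 5.57 ± 1.00. At the end of that order Parp12, Parp8 and Parp14, at 1.60 ± 0.17, 1.31 ± 0.29 and 1.17 ± 0.22, overlapped each with the next.

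In ETV6-RUNX1 bone marrow Parp2 and Parp1 no longer stood above the rest. Parp2 (35.6 ± 3.3 CPM per kb), Parp1 (32.6 ± 4.9), Parp9 (30.4 ± 4.9) and Dtx3l (30.0 ± 3.5) overlapped in turn, ahead of Parp10 at 18.3 ± 4.4. Parp11 (10.2 ± 2.2), Parp12 (8.19 ± 3.05), Parp3 (8.08 ± 1.66) and Parp14 (7.79 ± 2.72) then overlapped in turn, and Parp8 was last at 2.57 ± 0.39. ETV6-RUNX1 fetal liver had Parp9 first at 56.9 ± 7.9, then Dtx3l (44.9 ± 6.6) and Parp10 (33.5 ± 7.5), with neighbours overlapping. Parp2 (29.7 ± 2.7) came next and overlapped Parp10, and Parp1 (24.4 ± 2.0) followed. Parp12, Parp14 and Parp11 followed at 20.6 ± 6.4, 16.9 ± 4.3 and 16.4 ± 2.1, then Parp3 at 13.0 ± 1.5, and Parp8 was last at 3.80 ± 0.33 CPM per kb.

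**Figure D4:**
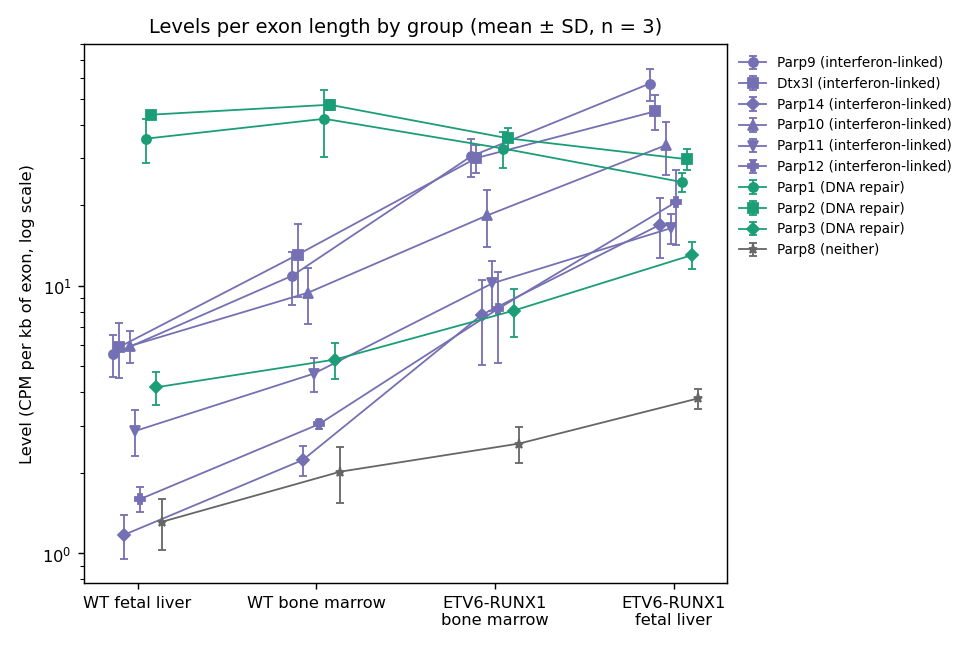
Mean level per kb of exon (log axis, ± SD, n = 3) of each gene in the 4 groups; lines only join the values of a gene. Parp1 and Parp2 lie apart from the other genes in the WT groups, and Parp9 and Dtx3l lie above both in ETV6-RUNX1 fetal liver.

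The genes whose log2(CPM + 1) followed a member most closely over the 12 libraries were ranked by Pearson's r, as a description over libraries that share 4 groups. For Parp14 they were Znfx1 (0.995), Stat2 (0.993) and Trafd1 (0.993), and for Dtx3l they were Ifih1 (0.992), Samd9l (0.990) and Zcchc2 (0.990). Parp11 was followed by Herc6 (0.995), Dhx58 (0.994) and Ddx58 (0.994); Ifih1, Dhx58 and Ddx58 encode the cytoplasmic RNA sensors MDA5, LGP2 and RIG-I. Znfx1, which tracked Parp14, had group means of 8.69 CPM in WT fetal liver, 17.3 CPM in WT bone marrow, 58.8 CPM in ETV6-RUNX1 bone marrow and 128 CPM in ETV6-RUNX1 fetal liver. Parp1 was followed by other genes: Eprs, a tRNA synthetase (0.973), Bub1, a mitotic checkpoint kinase (0.970), and Ipo5, a nuclear import factor (0.966). Bub1 had group means of 79.3, 56.2, 63.1 and 43.1 CPM in WT and ETV6-RUNX1 bone marrow and in WT and ETV6-RUNX1 fetal liver.

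Of 15 genes of interferon signalling, from receptors to STATs and their regulators, 12 rose in fetal liver and 11 in bone marrow, where 24.8% and 14.4% of all genes rose, and none fell. The medians of the list were 1.18 and 1.15 on the log2 scale, against 0.08 and 0.13 for all genes. Stat2, a transcription factor of the type I interferon response, rose by 4.10 ± 0.24 in fetal liver and 2.14 ± 0.24 in bone marrow (limma adjusted p of 2.19e-08 and 0.00015). Irf7, a transcription factor for interferon genes, rose by 6.18 ± 0.45 and 3.13 ± 0.45, from a mean of 19.3 to 1489 CPM in fetal liver and from 68.0 to 557 CPM in bone marrow. The difference between sources passed for 8 of the 15, all larger in fetal liver, where 5.56% of all genes passed in this direction. Among them were Stat2 (1.96 ± 0.35) and Usp18, an inhibitor of the receptor (3.15 ± 0.52). In WT cells 5 were lower in fetal liver, where 7.77% of all genes were. Among these were Irf9, Irf1 and, named after their values were seen, Irf7 and Ifngr1, and the count was 1 after either other scaling. In ETV6-RUNX1 cells 7 were higher in fetal liver, where 10.4% of all genes were. Usp18 was higher by 1.96 ± 0.37, Stat2 by 1.23 ± 0.24 and Isg15, a ubiquitin-like modifier, by 2.04 ± 0.44.

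The table holds 7 other PARP family genes. Of these 4 rose and 1 fell in fetal liver, where 24.8% of all genes rose and 18.3% fell. Zc3hav1, the antiviral protein ZAP, rose by 1.51 ± 0.29 on the log2 scale, from a mean of 217 to 605 CPM (limma adjusted p = 0.000895). The tankyrase Tnks rose by 1.24 ± 0.24, Parp4 by 1.18 ± 0.21 and Tiparp by 1.13 ± 0.18. Parp16, an enzyme of the endoplasmic reticulum, fell by 0.99 ± 0.25. The median of the 7 was 1.13. In bone marrow 1 of the 7 rose, close to the share of all genes that did (14.4%): Parp4, by 0.71 ± 0.21 (limma adjusted p = 0.0308), and no gene of the list passed after either other scaling. Zc3hav1 was at 0.70 ± 0.29 there (limma adjusted p = 0.107). Tnks2 and Parp6 passed in neither source: in fetal liver they were at 0.37 ± 0.19 and 0.27 ± 0.24. None of the 7 passed the test of the difference between sources, where 9.19% of all genes did, but 2 did after either other scaling. Parp16 was lower in fetal liver than in bone marrow among ETV6-RUNX1 cells, by -1.03 ± 0.25. It was the only call of the list there, where median-of-ratios scaling gave 2, and none of the 7 passed among WT cells. Of all genes 28.6% passed among ETV6-RUNX1 cells and 11.1% among WT cells.

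Among 15 genes of base excision and single-strand break repair, the pathway in which PARP1 and PARP2 act, 8 fell and none rose in fetal liver, where 18.3% of all genes fell and 24.8% rose, with a median of -0.45 against 0.08 for all genes. Apex1, the abasic site endonuclease, fell by 1.47 ± 0.17, Tdp1 by 1.12 ± 0.13 and the sliding clamp Pcna by 0.90 ± 0.15 on the log2 scale. In bone marrow, where 4.93% of all genes fell and 14.4% rose, 3 fell, Pcna by 0.62 ± 0.15, Tdp1 by 0.53 ± 0.13 and Apex1 by 0.52 ± 0.17, and 1 rose, the scaffold Xrcc1, by 0.52 ± 0.14. The rise of Xrcc1 was lost after median-of-ratios scaling, which gave 4 that fell and none that rose, while quantile normalization gave 6 that fell and 1 that rose. In fetal liver the log2 fold change of Xrcc1 was -0.57 ± 0.14, and its effects differed between sources by -1.08 ± 0.19 (limma adjusted p = 0.0033), as did those of Apex1, by -0.94 ± 0.24; median-of-ratios scaling left 1 of these calls. Of all genes 3.62% passed the test of the difference in this direction. In ETV6-RUNX1 cells 7 of the 15 were lower in fetal liver, where 18.2% of all genes were, against 2 of the 15 after median-of-ratios scaling. Xrcc1, Tdp1 and Apex1 differed there by -0.80 ± 0.14, -0.64 ± 0.13 and -0.66 ± 0.17. None of the 15 passed in WT cells, where 11.1% of all genes did.

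A list of 12 genes was drawn up around the reading, removal and direction of ADP-ribose. Of these, 11 could be tested, Adprhl1 being too low. In fetal liver 2 of them passed, where 43.1% of all genes did, and in bone marrow 2, close to the 19.4% of all genes. The hydrolases Macrod1 and Oard1 fell in fetal liver, by 0.86 ± 0.21 and 0.67 ± 0.17 on the log2 scale, and none rose. In bone marrow Macroh2a2, a histone with a macrodomain, rose by 1.30 ± 0.31, from a low mean of 1.12 to 4.31 CPM. Adprs rose there by 1.31 ± 0.39, and none fell. Quantile normalization left 1 call in bone marrow. Macrod1 had a difference between sources of -1.22 ± 0.30. Adprh and Macrod2 were higher in fetal liver than in bone marrow in both genotypes, by 0.80 ± 0.11 and 1.43 ± 0.37 in WT and by 0.69 ± 0.11 and 1.26 ± 0.37 in ETV6-RUNX1 cells, where Macrod1 (-1.54 ± 0.21) and Macroh2a2 (-0.99 ± 0.31) were lower.

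NAD is the source of the ADP-ribose that active PARP enzymes attach. Of 13 genes of its supply and use 9 were tested, of which 3 rose in fetal liver and 1 in bone marrow, shares near those of all genes tested (24.8% and 14.4% higher). None fell, but 1 did in fetal liver after either other scaling. Cd38, an NAD-consuming enzyme of the cell surface, rose by 2.99 ± 0.23 in fetal liver and 1.23 ± 0.23 in bone marrow on the log2 scale, and these effects differed by 1.77 ± 0.32 (limma adjusted p = 0.00384). Nampt, the rate-limiting enzyme of NAD salvage, rose by 1.73 ± 0.22 in fetal liver, where its mean went from 49.0 to 165 CPM, and was at 0.41 ± 0.22 in bone marrow (limma adjusted p = 0.19), a difference of 1.32 ± 0.30. Naprt rose by 1.02 ± 0.17 in fetal liver; among WT cells it was lower in fetal liver than in bone marrow, by -1.26 ± 0.17. In ETV6-RUNX1 cells Cd38 (1.48 ± 0.23) and Nampt (0.68 ± 0.22) were higher in fetal liver and Naprt (-0.74 ± 0.17) and Qprt (-0.83 ± 0.21) lower. Medians of the list were 0.14 in fetal liver and -0.06 in bone marrow, against 0.08 and 0.13 for all genes.

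**Figure D5:**
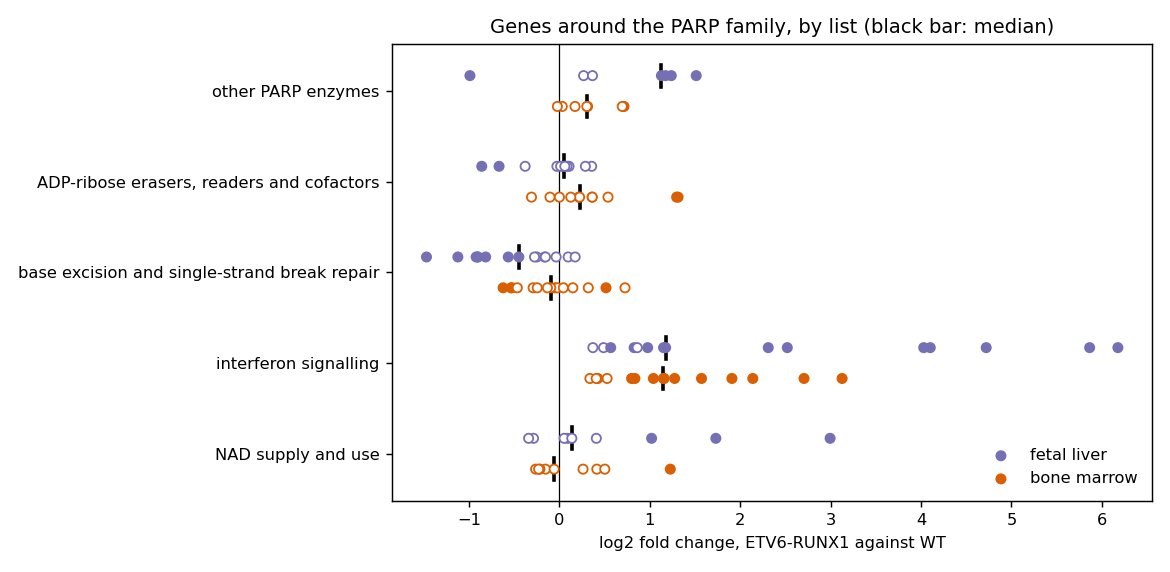
Log2 fold change of ETV6-RUNX1 against WT for each tested gene of 5 lists, fetal liver above bone marrow in each; filled points passed limma's test at an adjusted p of 0.05, and black bars are medians. Interferon signalling reaches 6.18 in fetal liver, while the base excision and single-strand break repair genes that passed in fetal liver are all below 0.

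Summed levels of marker genes of other blood cells moved with some of these results. In bulk RNA a change in the share of a cell type and a change in RNA per cell cannot be told apart. Of 5 monocyte and macrophage markers 1 reached 1 CPM in every library, as did 2 of 4 erythroid and 3 of 4 megakaryocyte markers. No plasmacytoid dendritic cell or neutrophil marker did. The summed level of 5 monocyte and macrophage markers was 201 to 267 CPM in WT and 636 to 821 CPM in ETV6-RUNX1 fetal liver, and 224 to 289 CPM against 242 to 408 CPM in bone marrow. The sum of 4 plasmacytoid dendritic cell markers was 0.806 to 2.34 CPM in WT and 10.2 to 35.3 CPM in ETV6-RUNX1 fetal liver, and 0.847 to 0.896 CPM against 2.59 to 4.98 CPM in bone marrow, with Siglech and Klk1 under 1 CPM in every library. Megakaryocyte markers (4 genes) summed to 2770 to 4088 CPM in WT and 6060 to 6482 CPM in ETV6-RUNX1 fetal liver, and to 1145 to 1538 CPM against 316 to 1705 CPM in bone marrow. Erythroid markers (4 genes) summed to 673 to 934 CPM against 1287 to 2024 CPM in fetal liver, and to 213 to 470 CPM against 377 to 582 CPM in bone marrow. Their part in the rise of the interferon-linked members was not tested.

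The sum of the neutrophil markers was lower in ETV6-RUNX1 cells in both sources, without overlap, and their part in the results was not tested. The 5 genes summed to 39.4 to 137 CPM in WT and 12.6 to 20.3 CPM in ETV6-RUNX1 fetal liver, and to 4.24 to 101 CPM against 1.76 to 3.16 CPM in bone marrow. T and NK cell markers, with Cd3e at 0 in all libraries, reached at most 2.01 CPM, and the 4 B cell markers at most 1.04 CPM, each under 1 CPM in every library. Mast cell and basophil markers summed to 3.09 to 9.98 CPM over all libraries, with Prss34 at 0 in all. Mcpt8 and Ms4a2 were under 1 CPM in every library, so that this sum is mostly Cpa3. Hepatocyte markers summed to 15.1 to 19.4 CPM in fetal liver and 21.2 to 36.8 CPM in bone marrow, with Alb and Ttr under 1 CPM throughout. Endothelial and stromal markers summed to 8.78 to 25.3 CPM.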

How the data were processed

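The 12 libraries were grouped by the labels' genotype and source. The submitters' processing notes name GRCm38, bcl2fastq, STAR 2.5.1a, Subread, featureCounts 1.4.6-p5, Salmon 0.8.2, edgeR and limma, without their roles. The deposited table gives CPM per gene, made by the authors as reads divided by the library total. All values (100%) were whole multiples of 1 read within 0.01 of a read, so reads were recovered; 3 reads equal 0.0465 to 0.0928 CPM, and the listed genes hold 99.8% to 99.9% of each total. Of 40757 entries, 276 repeated an ID with the same values and were kept once; 40254 IDs (99.4%) are in GENCODE M21, which gave positions and exon lengths.

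The members and gene lists were chosen with earlier results of these data known. The test was limma 3.58.1 (R 4.3.3; lmFit, eBayes with trend) on log2(CPM + 1), two-sided, over all 12 libraries with 8 residual degrees of freedom and no covariate. The filter kept genes that reach 1 CPM in 3 or more libraries (14271 of 29278 with reads), p-values were adjusted over them by Benjamini-Hochberg, and "rose", "fell" and "passed" mean an adjusted p under 0.05. Fold changes on this scale understate those of low genes. Limma was the main test because the deposited table holds CPM, and edgeR and DESeq2 values are given only as alternatives. The fits were checked on simulated data of the fetal liver comparison, where DESeq2 made more false calls than limma or edgeR. The limit set on false calls was widened after DESeq2 exceeded it. The simulation gave all genes the same spread and changed far fewer genes than were called here. Genes named beside the members were all other PARP family genes and up to 3 per list and comparison, by smallest p among those called. Outside this rule, values were also given for Irf7 and Ifngr1 in WT cells, Xrcc1 in fetal liver and Apex1 in bone marrow. The same holds for Macroh2a2 and Nampt between sources in ETV6-RUNX1 cells, and for Nampt in bone marrow, where it did not pass. The 3 genes of highest r for 4 members, and the 2 nearest protein-coding neighbours on each side of the chromosome 16 genes, were also named. As alternatives the fit was repeated with 0.1 as pseudocount, all genes with reads, a mean of at least 5 CPM, median-of-ratios and quantile scaling, the replicate number as a block, only the libraries compared, each library left out, and, from the recovered reads, edgeR 4.0.16 with TMM and DESeq2 1.42.0; the gene lists were refitted only with the scalings and the block. The values of 1 list gene are not reported here.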

Additional observations from a re-analysis of the deposited data

Results flagged for a closer look

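The genotype effects on 8 of the 10 members differed between fetal liver and bone marrow in limma's test of the difference itself. Of all genes tested 9.19% passed it, 5.56% with a positive difference, as for these 8 members, and 3.62% with a negative difference. The fetal liver log2 fold change minus that of bone marrow was 2.15 for Parp12, 2.01 for Parp14, 1.84 for Parp9, 1.67 for Dtx3l, 1.49 for Parp10, 1.39 for Parp11, 1.13 for Parp8 and 1.01 for Parp3. Limma adjusted p-values ran from 0.000745 for Parp9 to 0.0288 for Parp3. For the 6 interferon-linked members the difference passed in all 20 alternatives run, while it was lost in 7 of 20 for Parp3 and 4 of 20 for Parp8. Source cannot be told apart from the Xist level, from age or from anything else that differs between the fetal liver and bone marrow libraries.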

How the results depend on the processing

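Of 1040 alternative values for the members, 954 kept their direction and side of the threshold, 62 no longer passed, 23 newly passed and 1 changed sign: the difference between sources for Parp1, which passed in no fit, was 0.076 without WT bone marrow replicate 1 and -0.35 to 0.076 over all single libraries left out. The 5 members lower in WT fetal liver than in WT bone marrow became 2 with all genes with reads, 3 with median-of-ratios scaling, 2 with quantile normalization, 3 with edgeR, and 2 to 5 with a library left out. The replicate numbers did not pair the libraries (same-number correlations of deviations from -0.44 to 0.22; only fetal liver replicate 3 and bone marrow replicate 2, between genotypes, correlated best with their own number). With the replicate number as a block that count was 2 (limma adjusted p of 0.0538, 0.053 and 0.0565 for Parp14, Parp11 and Parp12), the 5 interferon signalling genes lower in WT fetal liver became 2, and the other 4 counts of members were as without the block. With a library left out, 9 to 10 members passed in fetal liver, 6 to 8 in bone marrow, 6 to 8 for the difference between sources and 4 to 7 between sources in ETV6-RUNX1 cells. Among all genes, the 2763 called in bone marrow became 1601 with only those libraries and 1520 without ETV6-RUNX1 replicate 2; the 1311 called for the difference became 767 with all genes with reads, and 731 to 2332 with a library left out; the 1591 called between sources in WT cells became 868 to 2781 with a library left out. In ETV6-RUNX1 cells 47.3% of called genes were higher in fetal liver after quantile normalization, 57.9% by edgeR and 56.0% by DESeq2, where limma gave 36.3%; in bone marrow edgeR gave 50.5% and DESeq2 52.0% higher. The cause of these shifts was not tested. Each group has 3 libraries, which limits precision more than depth does, and since reads carried no molecular identifiers the floor of 3 reads covers counting error only.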
